A study of Mus musculus with 4 samples.

Results

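The comparison described here set the liver of mice with an aging model of type 2 diabetes that had been given metformin against the liver of naturally aged control mice without any drug. It uses 2 of the 4 arrays of the study, each of whole-liver RNA from male mice hybridised to an Agilent 1-colour mouse array, with 1 array in each group. The other arrays held the diabetic model without a drug and the model given metformin together with astragalus polysaccharide, a carbohydrate fraction of Astragalus root (called the combination array), and they are shown only beside the values of interest. All 4 titles carry a time of 60 d whose starting point is not given. Strain, age, dose, the way diabetes was induced and the number of mice behind each array are not stated in the labels. The metformin array differs from the control array in both the diabetic model and the drug, so their parts cannot be told apart here.

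All non-control probes were members of the comparison, and 26494 of 56605 were well above background on both arrays. Of these, 18146 probes carried a RefSeq gene name and gave 13506 genes. Signals are given as scaled signals, which are spot intensities brought to a common 75th percentile of 1826 and then back to a linear scale, so that they are comparable between arrays for the same gene but not between genes. Differences are log2 values or folds of metformin over control. With 1 array in each group there is no replicate check, and no test or p-value is given. The SD of repeated spots was 0.11 for a log2 difference between both arrays, which leaves out every difference between mice and RNA preparations. Both arrays correlated at 0.9499 across the probes measured on both. Spots marked as outliers by the scanner software, 3.31% on the control and 5.35% on the metformin array, were left out.

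Metformin is a glucose-lowering biguanide that inhibits respiratory complex I in hepatocytes and activates the energy sensor AMPK, which restrains lipid synthesis and glucose production. The liver of male and female mice differs in many enzymes of steroid, drug and fatty acid metabolism, a pattern set by the pulses of growth hormone acting through STAT5b. Interferons switch on antiviral genes through the factor ISGF3, which binds the interferon-stimulated response element, and dividing cells switch on mitotic genes through factors bound at CCAAT boxes and CHR elements.

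At least 2-fold higher signal on the metformin array was found for 1458 of 13506 genes (10.8%), and at least 2-fold lower signal for 496 (3.67%). The nearest genes on either side of the upper limit differed by 1.00011 and 0.99997 in log2, and those of the lower limit by -1.00008 and -0.99866. At 4-fold the counts were 267 and 85 genes, at 8-fold 70 and 22, and at 16-fold 23 and 6. The split between higher and lower genes depended on the scale. Higher genes made up 74.6% of those apart by 2-fold or more, against 61.7% in the authors' value table, 57.7% with the arrays centred on their medians, 63.9% with outlier spots kept and 94.1% with the arrays scaled by 6 spike-in probes. These scalings put the median of all genes at -0.20 with median centring, -0.13 with outlier spots kept and 0.47 with the spike-in probes, against -0.01 here. Under every one of the 10 alternatives that measured them, 848 genes stayed 2-fold or more above the control and 180 stayed 2-fold or more below. The middle of the genes lay between -0.35 and 0.47.

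The difference also depended on the level of a gene. With genes put into 10 equal classes by level, the median was -0.35 in the highest class and 0.24 in the class next to the lowest, while in the authors' value table the highest class lay at 0.02. Abundant liver transcripts therefore have to be read against -0.35 and not against 0. The plot of differences by level shows this slope and the genes that lay furthest out.

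**Figure D1:**
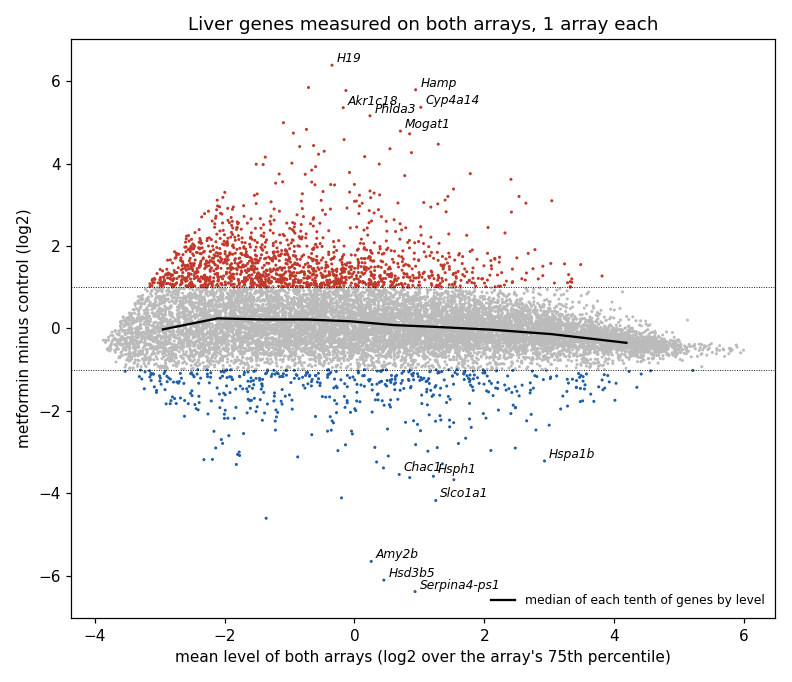
Difference of metformin minus control (log2, vertical axis) against the mean level of both arrays (log2 over the array's 75th percentile, horizontal axis) for 13506 genes, 1 array per group. Red points are the 1458 genes at least 2-fold higher, blue points the 496 at least 2-fold lower, and the black line joins the medians of 10 equal classes of genes by level, which end at -0.35 in the highest class.

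Per gene, 9635 were measured by 1 probe and 3871 by several, which differed among themselves by a median SD of 0.24. Of the 356 genes with several probes that were 2-fold or more apart, 349 had probes of the same sign. A further 727 genes were well above background on the metformin array alone with a bound of at least 2-fold, and 132 on the control array alone. Whatever the bound, 4647 of 56605 probes were seen on the metformin array alone and 1008 on the control array alone. Later counts of list members seen on 1 array alone stand beside these numbers and require no bound. Probes without a gene name split differently: of 8348, 483 (5.79%) were 2-fold or more higher and 572 (6.85%) lower, while named probes gave 10.2% and 4.29%, and all 26494 probes 8.83% and 5.1%.

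The genes furthest above the control are given first. In the following, 4 signals in a row stand for the control, diabetic, metformin and combination arrays in that order, and "no value" marks an array where outlier spots left a probe of the gene unmeasured. H19, an imprinted non-coding RNA of the fetal liver, gave scaled signals of 157, 4380.1, 13177 and 6199, so the metformin array stood 84.0-fold above the control. Hamp, which encodes the iron hormone hepcidin, gave 471, 10133, 26167 and 30891 and was 55.5-fold higher, and its paralog Hamp2 gave 641, 2808, 16943 and no value and was 26.4-fold higher. Both were lowest on the control array. Cyp4a14, a fatty acid omega-hydroxylase induced by PPAR-alpha, gave 577, 16373, 23859 and 18369.6, and Mogat1, a monoacylglycerol acyltransferase that makes diacylglycerol, gave 567, 6521, 15711 and 5131. They were 41.3-fold and 27.7-fold higher, and for both of them the control array was the lowest and the metformin array the highest of the 4.

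Akr1c18, which inactivates progesterone, gave 253, 1195, 10382 and 1240.0 and was 41.1-fold higher. Slc22a27, an organic anion transporter gene, gave 205, 3167, 5842 and 1802 and was 28.5-fold higher. Both stood highest on the metformin array. Mybl1, a transcription factor of the MYB family, gave 147, no value, 8495 and 1929, a 57.7-fold difference, and Ckap2, a spindle protein gene, gave 152, 693, 4834 and 547, a 31.9-fold difference. Fndc10, which encodes a membrane protein with a fibronectin domain, was 54.8-fold higher with signals of 225, 1438, 12353 and 3493. Gipc2, a PDZ-domain protein gene, was 24.0-fold higher with 334, 2463, 8016 and 745. Phlda3, a p53 target that restrains Akt, gave 360.4, 13005, 12909 and 5642 and was 35.8-fold higher, with nearly the same signal on the diabetic and the metformin array. Each of these 12 genes rested on 1 probe, and each kept its sign under every alternative that measured it.

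The genes furthest below the control are given next. Serpina4-ps1, a pseudogene of the serpin family, gave 31960.1, 523, 381 and 640.1 and stood 83.9-fold lower. Hsd3b5, a steroid dehydrogenase of the male mouse liver, gave 20800.3, 95.8, 301 and 78.6 (the diabetic and combination values not well above background) and stood 69.2-fold lower. Slco1a1, a male-biased organic anion transporter gene, gave 18527, 667, 1023 and 402 and stood 18.1-fold lower. In all of them the control array was far above the other 3.

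Amy2b, a pancreatic amylase gene, gave 15528, 157, 308 and 20.7 (the combination value not well above background), a 50.5-fold difference. Rnase1, the pancreatic ribonuclease gene, gave 3517, 25.004, 144 and 20.4 (the diabetic and combination values not well above background), a 24.4-fold difference. Cel, the gene of bile-salt-activated lipase, gave 11567, 369, 939 and 46.0 (the combination value not well above background), a 12.3-fold difference. These enzymes are made by the exocrine pancreas and are taken up again with its markers. Hsph1, a chaperone of the HSP110 family, gave 14729, 8853, 1223 and 784 and was 12.04-fold lower, the metformin and combination arrays being the low ones. Chac1, a glutathione-degrading enzyme gene switched on by ATF4, gave 10077, 1654, 862 and 1235 and was 11.7-fold lower.

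Cd207, which encodes the lectin langerin, was 17.3-fold lower with 6625, 1565, 382 and 3158. Ppp1r3g, a subunit that steers protein phosphatase to glycogen, was 9.77-fold lower with 14601, 1821, 1494 and 12527. Its signal on the combination array was near that of the control. Asic5, a bile-acid-sensitive ion channel gene, was 9.47-fold lower with 7124, 1684, 752 and 709. These genes were also measured by 1 probe each and kept their sign under every alternative that measured them.

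**Figure D2:**
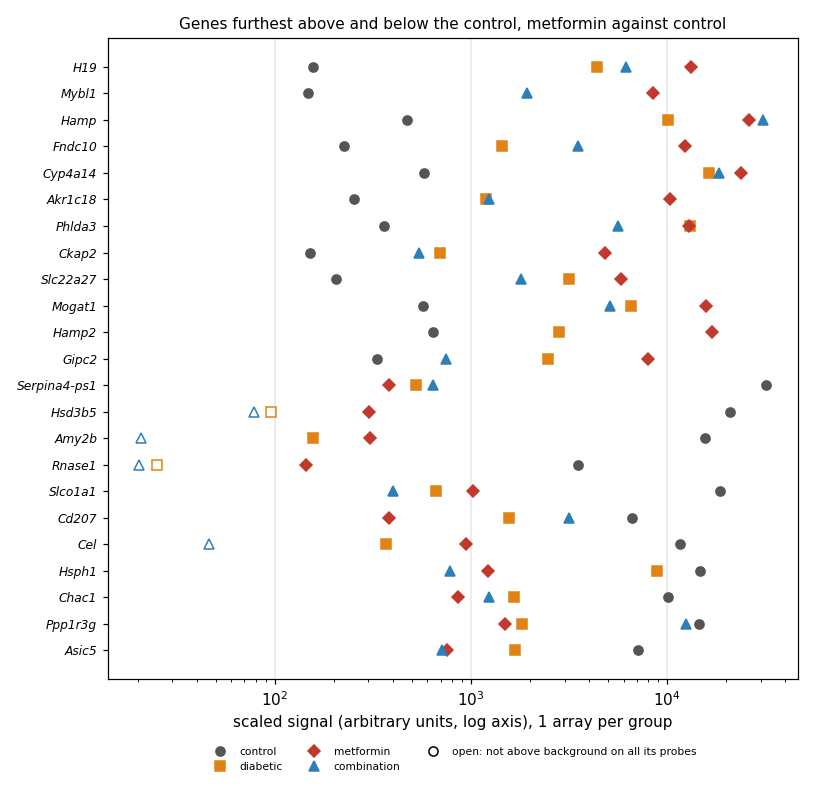
Scaled signal (arbitrary units, log axis) of the 12 genes furthest above and 11 of the 12 furthest below the control, on each of the 4 arrays, 1 per group. Open symbols are not well above background, and a missing symbol had no value after outlier spots were left out. H19 went from 157 on the control to 13177 on the metformin array, and Hsd3b5 from 20800.3 to 301.

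Genes seen on 1 array alone have only a bound, which sets the brighter array against the lowest signal of any probe above background on the other array, or against the dim probe's own signal there where that is higher. Among the 4 largest bounds above the control were those of Sult2a2 at 164-fold, Sult2a1 at 148-fold and Sult2a4 at 64.9-fold or more. Sult2a2 gave 28.9, 2556, 22654 and 24447 (the control value not well above background). Below the control the largest were Ifi202b, an interferon-inducible gene, lower by at least 47.9-fold, and Adh6-ps1, an alcohol dehydrogenase pseudogene, by at least 12.6-fold. Olfr812, an odorant receptor gene, was lower by at least 9.11-fold and Hoxd12, a limb patterning gene, by at least 7.48-fold. Ifi202b gave 5178, no value, 27.1 and 2128 (the metformin value not well above background).

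The sex-biased genes of the liver lay on opposite sides of 0. Of 24 genes known to be higher in female liver, 15 were measured on both arrays, and 14 of these lay above 0 and 11 at least 2-fold above, with a median of 1.64 (1.40 to 2.13 over the alternatives, a range given in parentheses for the lists that follow and for some genes). A further 5 were above background on the metformin array alone. Of 20 male-biased genes, 14 were measured, all below 0 and 7 at least 2-fold below, with a median of -0.94 (-1.24 to -0.46). Over all genes the corresponding shares were 10.8% higher and 3.67% lower, and the counts of every later list stand beside the same shares. Against the same control array, the female-biased median was 1.24 over 12 members on the diabetic and 1.35 over 15 on the combination array. The male-biased median was -0.93 over 10 and -1.73 over 13, in each case over members with every probe well above background on that array.

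The female-biased sulfotransferases, which attach sulfate to steroids and bile acids, carried the largest values. Sult2a1 gave 144, no value, 21339.7 and 20402 (the control value not well above background), Sult2a4 gave 29.3, 1202, 8953 and 9118 (the control value not well above background) and Sult3a1 gave 33.5, 70.5, 7452 and 2404 (the control and diabetic values not well above background), and Sult1e1, the estrogen sulfotransferase, gave 948, no value, 21071 and 26724. Sult1e1 was measured on both arrays and stood 22.2-fold higher, and the bound for Sult3a1 was 54.0-fold. Of the 18 sulfotransferase genes listed, 7 were above background on the metformin array alone, among them Sult2a6 (at least 31.3-fold) and Sult3a2 (at least 29.5-fold). The Sult2a genes are near-identical, and their probes can share signal. The 7 measured on both had a median of 0.03 (-0.16 to 0.52), with Sult5a1 8.57-fold and Sult2a8 2.68-fold lower, at signals of 7680.0, 1467, 897 and 1398 and of 40536, 18975, 15152 and 17080.4. The broadly expressed Sult1a1 gave 41566, 43610.4, 38789 and 45018, a log2 difference of -0.10 that ran from -0.29 to 0.39 over the alternatives.

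Among the other female-biased genes, Cyp17a1, which makes androgen precursors, gave 298, 12056, 5878 and 11954 and was 19.7-fold higher. Hao2, a peroxisomal hydroxyacid oxidase gene, gave 223, 170.2, 3000.4 and 236 and was 13.4-fold higher, with the diabetic and combination arrays at about the control level. Cux2, a repressor of male-biased genes in female liver, gave 213, 1342, 664 and 1708 and was 3.12-fold higher. Atp6v0d2, a proton pump subunit gene, was 4.69-fold higher. Cyp2b9 and Cyp2b10, inducible through the receptor CAR, were 1.73-fold and 2.02-fold higher.

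On the male-biased side, Elovl3, a fatty acid elongase gene, gave 8397, 970.1, 1962 and 400.2 and was 4.28-fold lower. Cyp7b1, the oxysterol 7-alpha-hydroxylase, gave 34459, 17056, 13329 and 16585 and was 2.59-fold lower. Cyp2u1, a fatty acid hydroxylase gene, was 3.497-fold lower with 3164, 2012, 905 and 812. Cyp4a12a, the main omega-hydroxylase of arachidonic acid in male mice, gave 40763, 25626, 32463 and 9066 and differed by -0.33, close to the median of equally abundant genes, running from -0.52 to 0.16 over the alternatives. Serpina12, the adipokine vaspin gene, was above background on the control array alone and lower by at least 4.78-fold.

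**Figure D3:**
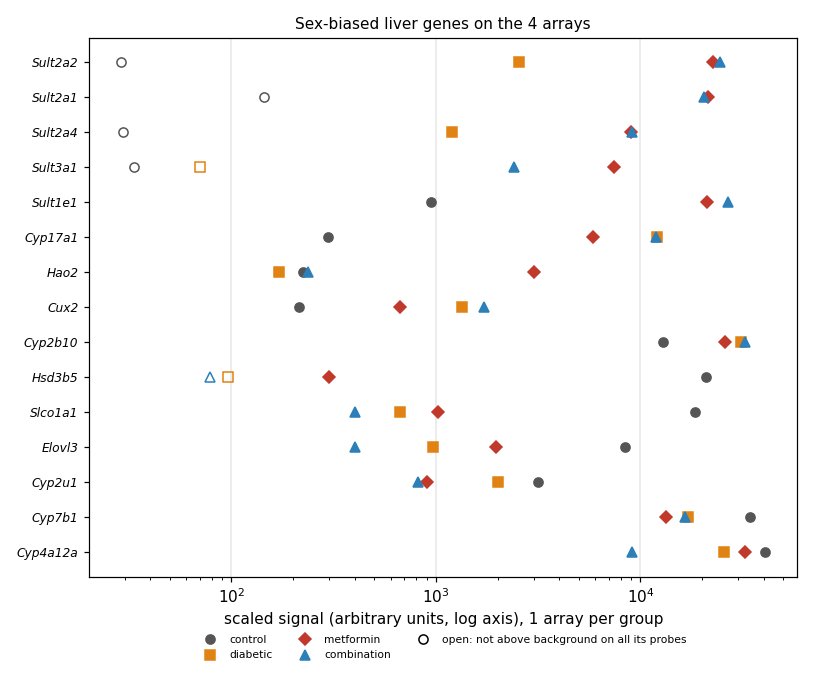
Scaled signal (arbitrary units, log axis) of sex-biased liver genes on each of the 4 arrays, 1 per group, with open symbols for values not well above background and no symbol where outlier spots left no value. Sult2a2 lay at 28.9 on the control and 22654 on the metformin array, while Slco1a1 lay at 18527 on the control and 1023 on the metformin array.

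Genes of insulin and growth hormone signalling were read against the 3.67% of all genes at least 2-fold lower. Of 21 insulin and growth hormone genes, 20 were measured, 17 below 0 and 5 at least 2-fold, with a median of -0.37 that ran from -0.56 to 0.12 over the alternatives. Cish, a STAT5 target that dampens cytokine signalling, gave 9936, 795, 2128 and 2911 and was 4.67-fold lower. Socs3, another suppressor of cytokine signalling, gave 15765, 2716, 5722 and 3470.4, a 2.76-fold difference, and Igfals, the acid-labile subunit that holds IGF1 in blood, gave 6946, 2804, 2449 and 1407, a 2.84-fold difference. Lepr, the leptin receptor gene, stood at 1426, 5765, 344 and 2230.0 and was 4.15-fold lower. Irs2, an insulin receptor substrate that fasting induces, was 2.75-fold lower with 13997, 7167, 5084 and 7859, while Irs1 was 1.58-fold higher with 6234, 8752, 9874 and 7764. The insulin receptor gene Insr differed by -0.35 (-0.60 to 0.13 over the alternatives).

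Interferon-stimulated genes were higher as a group. Of 30 listed, 21 were measured, 20 lay above 0 and 16 at least 2-fold above, with a median of 1.68 (1.49 to 2.17 over the alternatives). The interferon-stimulated response element, searched as GAAA, any pair of bases and GAAA on both strands in the 250 bases before the start, was present in 13 of the 22 members whose promoter was in the RefSeq table (59.1%), against 3.46% of all 27025 promoters. The stretches below, from RefSeq in build GRCm38.p6 and read 5′ to 3′ along the gene, show it in capitals, in either orientation and with overlapping matches run together, for a set of measured members that hold it.
Isg15, chr4:156200840-156200919, minus strand: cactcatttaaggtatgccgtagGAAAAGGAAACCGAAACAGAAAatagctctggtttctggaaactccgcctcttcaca
Ifit1, chr19:34640769-34640848, plus strand: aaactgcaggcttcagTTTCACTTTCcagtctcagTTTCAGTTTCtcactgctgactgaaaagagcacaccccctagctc
Rsad2, chr12:26456528-26456607, minus strand: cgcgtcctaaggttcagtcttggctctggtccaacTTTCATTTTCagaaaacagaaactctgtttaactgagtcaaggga
Oas1g, chr5:120887614-120887693, minus strand: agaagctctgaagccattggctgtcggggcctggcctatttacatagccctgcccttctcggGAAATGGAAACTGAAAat
The members with this match had a median of 1.69 (8 measured) and those without it 1.77 (8 measured), so the match did not separate them.

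Within the group, Oasl1, an antiviral relative of the oligoadenylate synthetases, gave 1327, 3706, 11049 and 1723 and was 8.32-fold higher. Usp18, which removes the ubiquitin-like ISG15 and dampens interferon signalling, gave 1559.5, 10402, 12684 and 7727, an 8.13-fold difference. Oas1g, an oligoadenylate synthetase gene, gave 797, 876, 4391 and 522, and Rsad2, the antiviral enzyme viperin, gave 1356, 2056, 7369 and 1854. These stood 5.51-fold and 5.43-fold higher, with the metformin array the highest of the 4. Ifi44 was 4.90-fold higher with 2259.9, 3273, 11073 and 1634. Of the Ifit genes, whose proteins bind viral RNA, Ifit1 gave 4023, 8904, 14239 and no value, Ifit2 gave 729, 521, 2639 and 797 and Ifit3 gave 7191, 11155, 18271 and 9297, folds of 3.54, 3.62 and 2.54. The median of this list against the same control array was 0.55 over 20 members for the diabetic and -0.27 over 19 for the combination array. Here and below, such medians leave out members with any probe not well above background, or without a value, on that array. Throughout, such values share the control array with those of the metformin array and are not independent of them.

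Chemokines and lymphocyte markers stood higher beside them. Of 28 chemokine and cytokine genes, 19 were measured, 8 of them 2-fold or more above the control and 1 below it, with a median of 0.87 (0.68 to 1.35). Ccl2, which draws monocytes, gave 1743, 497, 7531 and 671, a 4.32-fold difference, and Ccl5, which draws T cells, gave 3253, 1744, 17787 and 2318, a 5.47-fold difference. Ccl3 and Ccl4 were 5.90-fold and 3.18-fold higher, and Ccl7 was seen on the metformin array alone, at least 8.62-fold higher. The neutrophil attractant Cxcl1 went the other way, at 32978, 3662, 6472 and 3504, a 5.10-fold lower signal.

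Markers of T, NK and B lymphocytes had a median of 0.72 (0.43 to 1.21) over 20 of 27 measured, 9 2-fold or more above the control and 2 below it. The list was mixed, with 15 above 0 and 5 below, the lowest at -1.20. The members named next are T and NK cell markers from the higher side, and no B cell gene is among them. Cd3d, a subunit of the T cell receptor complex, gave 399, 373, 2332 and 498 and was 5.84-fold higher, and Cd3e, Cd3g and Cd2 were 2.31-fold, 3.51-fold and 2.90-fold higher. Nkg7, a granule protein of NK and cytotoxic T cells, gave 1327, 307, 4996 and 674, and the receptor gene Klrd1 gave 576, 135, 1710.5 and 412 (the diabetic value not well above background), folds of 3.77 and 2.97. Gzmk was seen on the metformin array alone, at least 5.58-fold higher. The summed scaled signal of the measured lymphocyte markers was 18373, 10399, 29692 and 12653, where each sum leaves out a member with no value on that array. In bulk tissue, fewer cells of a type and less RNA per cell cannot be told apart. The part of these cells in the interferon and chemokine values was not tested.

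The macrophage list held members far above and far below the control. Over 17 of 20 measured genes the median was 0.10 (-0.09 to 0.59 over the alternatives), and the summed signals were 309132, 229736, 304114 and 185302. The sums for the diabetic and combination arrays leave out Lyz2, which had no value there and gave 10546 on the control array. Itgam, at 59160, 46923, 40223 and 50239.7, was the largest member of each sum. Trem2, a lipid-sensing receptor of macrophages in fatty liver, gave 723, 1911, 6529.6 and 917 and was 9.03-fold higher. Cx3cr1, the fractalkine receptor, was 8.18-fold higher with 224, 148, 1831 and 60.5 (the combination value not well above background), and Gpnmb was seen on the metformin array but not on the control, at least 10.4-fold higher. Ly6c2, a marker of inflammatory monocytes, was 2.47-fold higher. Cd163 and Marco, scavenger receptors of resident macrophages, gave 8751, 5628, 1564 and 1424 and 7972, 6785, 2588 and 1147 and were 5.60-fold and 3.08-fold lower. Clec4f, the marker of Kupffer cells, was 1.70-fold lower, and Adgre1, which encodes F4/80, differed by 0.10 (-0.09 to 0.59). Other macrophage markers of the list were not lower to this degree. Vsig4, Cd5l and C1qa differed by 0.02, 0.01 and -0.02, and C1qb, C1qc and Folr2 by 0.23, 0.31 and 0.46, while Itgam differed by -0.56.

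Genes of antigen presentation had a median of 0.11 (-0.08 to 0.60), with 1 of 18 at least 2-fold higher, the peptide transporter gene Tap1 at 2.43-fold with signals of 1198, 2922, 2912 and 1396. The class II gene H2-Ab1, on 4 probes, was 1.42-fold higher. Neutrophil genes had a median of -0.60 over 11 measured (-0.79 to -0.11), 3 of them at least 2-fold lower, and a further 3 were seen on the control array alone. Retnlg and Camp, granule genes, were 2.33-fold and 2.32-fold lower, and S100a9, a subunit of calprotectin, was 1.73-fold lower with 14319.7, 4753, 8283 and 2651. Their summed signals were 125091, 91054, 100429 and 74490.5. The sums for the diabetic and combination arrays leave out Ly6g, which had no value there and gave 13065 on the control array. Most of each sum came from Csf3r and Lcn2, which differed by -0.27 and -0.03 between metformin and control.

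Genes of mitosis stood higher on the metformin array. Of 30 listed, 22 were measured on both arrays, 20 above 0 and 16 at least 2-fold above, with a median of 1.63 (1.37 to 2.12). Another 6 were above background on the metformin array alone, counted whatever their bound. The median against the same control was -0.05 over 16 members on the diabetic and -0.41 over 16 on the combination array. Members not well above background there, such as Prc1, are left out of these medians. Over the 250 bases before the start, the CCAAT box (both strands) was present in 21 of 25 members with a promoter in the table (84.0%), against 37.5% of all promoters, and the CHR element TTTGAA in 8 (32.0%), against 18.3%. The CCAAT boxes of a few members, in capitals in either orientation (ATTGG is the reverse complement), show their place ahead of the start.
Ccnb1, chr13:100786512-100786591, minus strand: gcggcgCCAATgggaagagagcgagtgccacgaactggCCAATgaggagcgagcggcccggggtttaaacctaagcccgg
Cdc20, chr4:118437344-118437423, minus strand: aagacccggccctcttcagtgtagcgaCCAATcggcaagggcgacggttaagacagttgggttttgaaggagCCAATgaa
Mki67, chr7:135716479-135716558, minus strand: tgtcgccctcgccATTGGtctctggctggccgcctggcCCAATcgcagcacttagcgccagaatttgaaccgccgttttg
The 17 measured members with a CCAAT box had a median of 1.58, and the 3 without it 2.19.

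Ccnb1, cyclin B1, gave 209, 222, 2005 and 64.8 (the combination value not well above background) and was 9.61-fold higher. Prc1, which bundles the spindle midzone, gave 151, 121, 1189 and 42.3 (the diabetic and combination values not well above background), a 7.86-fold difference, and Cenpm, a centromere protein gene, gave 1633, 379, 14163 and 12439, an 8.67-fold difference. Ndc80, a kinetochore gene, was 5.27-fold higher with 152, 121, 800.0 and 123 (the diabetic value not well above background). Apart from Cenpm on the combination array, signals of these genes on the diabetic and combination arrays lay at or below about the control level. Nusap1 and Top2a, the DNA topoisomerase of dividing cells, were 4.55-fold and 3.30-fold higher. Tpx2 and Nuf2, spindle and kinetochore genes, and Foxm1, a transcription factor of mitotic genes, were seen on the metformin array alone, with bounds of 5.80-fold, 5.61-fold and 3.003-fold. Mki67, the proliferation marker Ki-67, gave 2673, 463, 3762 and 447, only 1.41-fold higher. Several of these genes lay close to background on the control array, where a fold is less certain.

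DNA replication genes were higher to a smaller degree. Of 28 measured out of 29, 24 lay above 0, 8 at least 2-fold, and 2 at least 2-fold lower, with a median of 0.70 (0.51 to 1.19). Gins2, part of the replicative helicase, gave 409.6, 384, 2165 and 350.3, and Pole, a leading-strand polymerase, gave 314, 409, 1335 and 488, folds of 5.28 and 4.25. Cdt1, which loads the helicase, was 3.57-fold higher with 1252, 1584, 4467 and 5414. The helicase genes Mcm2, Mcm3, Mcm4 and Mcm5 were 2.09-fold, 1.70-fold, 1.55-fold and 2.90-fold higher. Ccne2, cyclin E2, was seen on the control array alone and was lower by at least 4.01-fold. The E2F element TTTCCCGC was present before 2 of 23 members (8.70%), Mcm7 and Cdc6, against 1.03% of all promoters. The lymphocyte markers given above, which come from cells that can divide, were also higher on this array, and their part in these values was not tested.

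Targets of p53 and senescence genes were higher as well. Of 17 measured out of 21, 16 lay above 0 and 11 at least 2-fold above, with a median of 1.42 (1.19 to 1.90). Beside Phlda3, Zmat3, an RNA-binding p53 target, gave 869, 4052, 6414 and 4260.1 and was 7.38-fold higher. Mdm2, the ligase that removes p53, gave 1918, 7253, 8908 and 4441, a 4.64-fold difference as the mean of 2 probes. These probes lay far apart, at log2 differences of 0.33 and 4.10, so the size for Mdm2 is uncertain. Trp53inp1 gave 497, 1080.0, 2788 and 1241, a 5.60-fold difference. The log2 differences of Mdm2 and Trp53inp1 ran from 0.33 to 2.70 and from 0.86 to 2.97 over the alternatives. Cdkn1a, the cyclin-dependent kinase inhibitor p21, gave 1592, 3307, 4845 and 1636 and was 3.04-fold higher. Cdkn2b, the inhibitor p15, was 2.79-fold higher. Gdf15, a stress hormone that curbs appetite and whose blood level metformin is known to raise, gave 4081, 12329.8, 20347 and 8472 and was 4.99-fold higher. The list's median was 0.89 on the diabetic and 0.32 on the combination array.

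Imprinted and oncofetal genes, some of which the liver shuts down after birth, included H19. Of 12 measured out of 16, 7 were at least 2-fold higher, with a median of 1.66 (1.47 to 2.26). Other members differed little, such as Igf2r by 0.35 and Plagl1 by -0.01, at signals of 8849 and 7083 on the control array. Afp, alpha-fetoprotein, gave 479.8, 1868, 8652 and 2149.9 and was 18.0-fold higher. Gpc3, a fetal glypican, gave 309, 767, 4708 and 1756, a 15.2-fold difference. Meg3 and Rian, non-coding RNAs of the Dlk1 cluster, gave 358, 99.8, 4017 and 1266 (the diabetic value above background on only some probes) and 853, 452, 5957 and 1818, folds of 11.2 and 6.98. Igf2 and Dlk1, fetal growth regulators, were not well above background on the control array, with bounds of 10.5-fold and 11.2-fold. For H19, Afp, Gpc3, Meg3 and Rian the metformin array gave the highest of the 4 signals. The list's median was 0.68 over 10 members on the diabetic and 0.77 over 12 on the combination array.

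The stress responses differed in direction. Among heat shock protein genes, 16 of 16 measured lay below 0 and 9 at least 2-fold below, with a median of -1.18 (-1.37 to -0.70). Hspa1b, the inducible HSP70, gave 42406, 30443, 4555 and 1816, and its near-identical neighbour Hspa1a gave 11246, 11541, 1424 and 308, folds of 9.31 and 7.90. Their probes can share signal. Dnajb1, the HSP40 partner of HSP70, gave 53955, 33163, 16102 and 10568, and Chordc1, a cochaperone of HSP90, gave 1710.1, 1719.6, 359.8 and 333, folds of 3.35 and 4.75. The constitutive HSP70 gene Hspa8 was 2.41-fold lower with 30361, 24506, 12618 and 12136. Control and diabetic arrays were high and metformin and combination arrays low for most of these genes, and the list's median was -0.30 on the diabetic and -1.32 on the combination array.

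Genes of the unfolded protein response, which adapts the endoplasmic reticulum to misfolded protein, gave a like picture. Of 18 measured, 17 lay below 0 and 4 at least 2-fold below, with a median of -0.76 (-0.95 to -0.28), against 0.00 on the diabetic and -0.86 on the combination array. Dnajb9 gave 3711, 3684, 1453 and 1673 and was 2.55-fold lower. Creld2 and Sdf2l1, both induced by ATF6, gave 39673, 43273, 16653 and 8340.2 and 23617, 33144, 10601 and 6768, folds of 2.38 and 2.23. Derl3, a component of protein export for degradation, was 2.10-fold lower with 1158, 11447, 550.3 and 163, the diabetic array being far above the others. The chaperone BiP, encoded by Hspa5, was 1.81-fold lower, and the factor gene Xbp1 1.57-fold lower.

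The integrated stress response showed no common direction, with a median of -0.13 over 17 genes (-0.32 to 0.35), 3 2-fold or more above the control and 2 below it. Trib3, a pseudokinase induced by ATF4, gave 1822, 7902, 12968 and 11121 and was 7.12-fold higher. Fgf21, a fasting hormone of the liver, gave 1744, no value, 4899.9 and 286, a 2.81-fold difference. Chac1, given above, and Aldh1l2, a mitochondrial folate enzyme gene, were lower, the latter by 3.49-fold with 650.4, 199.7, 187 and 178. Atf4 itself differed by -0.18 (-0.37 to 0.31) and Ddit3, which encodes CHOP, was 1.56-fold higher with 7088, 14673, 11078 and 4606.

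**Figure D4:**
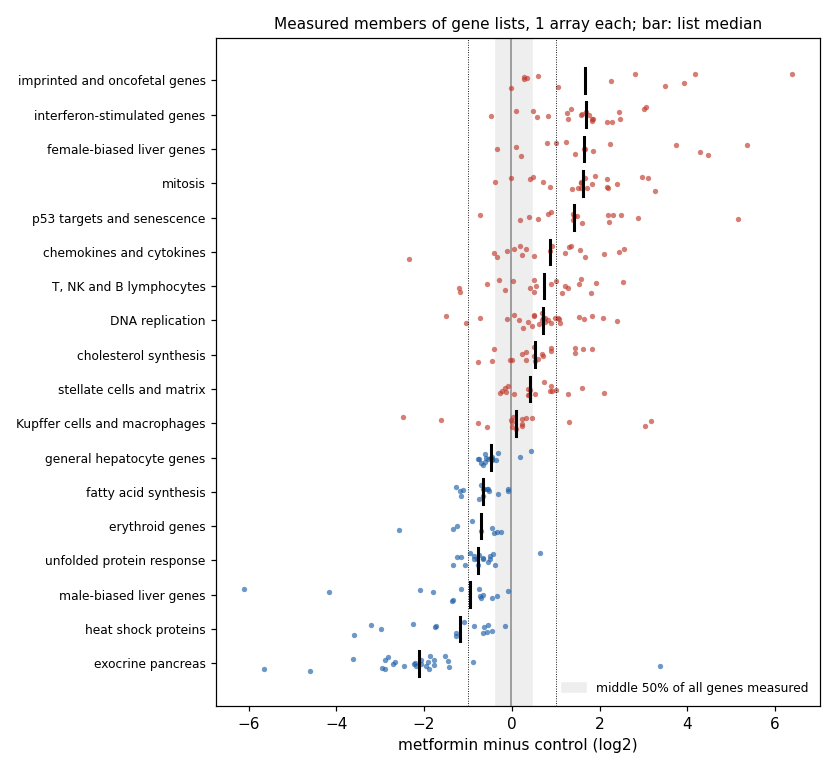
Log2 difference of metformin minus control (horizontal axis) for the measured members of 18 gene lists, 1 array per group. Each point is a gene, the black bar is the median of the list, dotted lines mark 2-fold, and the grey band spans the middle of all 13506 genes, -0.35 to 0.47. The 15 measured female-biased genes centre at 1.64, the 14 male-biased ones at -0.94 and the 26 exocrine pancreas genes at -2.12.

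In lipid metabolism, cholesterol synthesis and fatty acid synthesis lay on opposite sides of 0. Of 20 measured cholesterol synthesis genes, 15 lay above 0 and 4 at least 2-fold above, with a median of 0.53 (0.34 to 1.01), against -0.38 on the diabetic and 0.16 on the combination array. Sqle, squalene epoxidase, gave 2983, 1617, 10519 and 6807 and was 3.53-fold higher. Mvd, which makes isopentenyl diphosphate, gave 1089.8, 2558, 3339.9 and 1396, and Cyp51, the sterol demethylase, gave 2049, 1062, 5589 and 3669, folds of 3.06 and 2.73. Nsdhl, a later demethylation enzyme, was 2.71-fold higher with 5988, no value, 16256 and 9731. Hmgcs1, the HMG-CoA synthase, was 1.85-fold higher with 23478, 26436, 43442 and 36446.

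These genes are controlled by SREBP2 together with NF-Y, which binds the CCAAT box. The box was present in the 250 bases before the start of 15 of 16 members with a promoter in the table (93.8%), against 37.5% of all promoters. The sterol regulatory element TCACNCCAC was present before 1 of 16 (6.25%), Hmgcs1, against 1.22% of all promoters. The stretches show these matches in capitals, the first Hmgcs1 stretch a CCAAT box and the second the sterol regulatory element.
Mvd, chr8:122443423-122443502, minus strand: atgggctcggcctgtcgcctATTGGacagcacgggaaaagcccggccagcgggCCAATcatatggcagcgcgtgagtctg
Cyp51, chr5:4104698-4104777, minus strand: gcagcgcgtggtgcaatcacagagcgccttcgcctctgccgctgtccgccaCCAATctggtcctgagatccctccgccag
Hmgcs1, chr13:119690268-119690347, plus strand: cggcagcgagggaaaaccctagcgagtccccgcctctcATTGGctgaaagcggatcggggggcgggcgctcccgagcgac
Hmgcs1, chr13:119690178-119690257, plus strand: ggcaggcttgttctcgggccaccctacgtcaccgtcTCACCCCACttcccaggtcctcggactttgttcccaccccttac
All 15 members with a CCAAT box were measured and had a median of 0.59.

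Srebf2, which encodes SREBP2, was 2.24-fold higher with 636, 696, 1423 and 1224, while the genes of sterol uptake, export and control, which include it, had a median of -0.36 (-0.55 to 0.13). Of 15 measured fatty acid synthesis genes, all lay below 0 and 4 at least 2-fold below, with a median of -0.65 (-0.84 to -0.17). Acaca, acetyl-CoA carboxylase 1, gave 4726, no value, 1967 and 1566 and was 2.40-fold lower on 3 probes. Elovl6, an elongase of palmitate, gave 19216, 18724, 8539 and 5104, and Thrsp, a lipogenic regulator, gave 57299, 38588, 26578 and 29090.4, folds of 2.25 and 2.16. Pklr, the liver pyruvate kinase, was 2.23-fold lower with 5082, 2262, 2284 and 718. Acacb and Acly were 1.62-fold and 1.47-fold lower.

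Beside Cyp4a14, Cyp4a31, another member of its family, gave 1632, 17505, 15043 and 21339.7 and was 9.22-fold higher. Probes of closely related Cyp4a genes can share signal. The genes of fatty acid oxidation, Cyp4a14 and Cyp4a31 included, had a median of -0.22 (-0.41 to 0.27) and 3 of 19 at least 2-fold higher. Cpt1a, the carnitine transferase that admits fatty acids to mitochondria, differed by -0.30 (-0.49 to 0.19) and Ppara by -0.58 (-0.77 to -0.10). Lipid droplet genes had a median of 0.30 (0.10 to 0.78), with 5 of 16 at least 2-fold higher. Plin4, a droplet coat protein, gave 1118, 1295, 6967 and 5607 and was 6.23-fold higher. Cidea, which fuses droplets, gave 2705, 2223, 8712 and 1769.7, a 3.22-fold difference, and G0s2, an inhibitor of the lipase ATGL, gave 3291, 10354, 12011 and 1194, a 3.65-fold difference. Pparg was 2.21-fold higher, and Mogat2 was seen on the metformin array but not on the control, at least 17.4-fold higher.

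In bile acid metabolism single genes stood far apart while the list's median was -0.25 (-0.45 to 0.23). Cyp7a1, whose enzyme takes the first and limiting step from cholesterol to bile acids, gave 1488, 18915, 11466 and 21210.0 and was 7.71-fold higher, and Cyp8b1, which directs synthesis to cholic acid, gave 5889, 10697, 2839 and 7050.4 and was 2.07-fold lower. Slc51b, a subunit of the basolateral bile acid exporter, gave 442, 1766, 4941 and 1713, and Abcc4, another export pump, gave 627, 3721, 5333 and 3885, folds of 11.2 and 8.50 above the control. The partner subunit Slc51a was seen on the control array alone and was lower by at least 5.23-fold.

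Genes of glucose production, the textbook target of metformin, followed the trend of abundant genes. All 16 of 16 were measured, 13 below 0, with a median of -0.50 (-0.69 to -0.01), beside -0.35 for the highest class of genes by level. Pck1, which encodes phosphoenolpyruvate carboxykinase, gave 64271, 54926, 41960.5 and 51387, and G6pc, glucose-6-phosphatase, gave 53444, 41327, 37644 and 32916, log2 differences of -0.62 and -0.51. Fbp1 differed by -0.54. The gene past 2-fold was Gpt2, an alanine aminotransferase that feeds pyruvate, at 7061, no value, 1995 and 5984, a 3.54-fold lower signal. Glycolysis genes had a median of -0.51 (-0.70 to -0.03). Pfkfb1, Pfkfb3 and Pfkl, which control or carry the phosphofructokinase step, were 1.97-fold, 1.91-fold and 1.95-fold lower.

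The drug's own pathway showed no common direction. Over 20 measured genes of AMPK, mTOR and metformin transport, the median was -0.07 (-0.26 to 0.41), with 2 2-fold or more above the control and 2 below it. Of the catalytic AMPK subunits, Prkaa1 gave 1491, 1511, 2417 and 1719.9 and was 1.62-fold higher, while Prkaa2 gave 442, 184, 176 and 96.4 (the combination value not well above background) and was 2.51-fold lower at a low signal. The regulatory subunit gene Prkab2 was 2.50-fold higher with 1133, 863, 2827 and 1282, and Prkab1 differed by -0.15 (-0.34 to 0.33). Rictor, a subunit of mTORC2, was 2.04-fold lower. Slc22a3, the cation transporter OCT3, gave 498, 956, 2003 and 1208 and was 4.02-fold higher.

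Antioxidant and drug metabolism genes were read against the 10.8% of all genes 2-fold or more above the control and the 3.67% below. The NRF2 and glutathione list had a median of 0.01 (-0.18 to 0.50), with 5 of 18 at least 2-fold higher. Nqo1, a quinone reductase and classical NRF2 target, gave 794, 2886, 5766 and 4479, and Gsta2, a glutathione transferase, gave 3487, 24244, 32149 and 29811, folds of 7.26 and 9.22. Nfe2l2, the gene of NRF2 itself, gave 1595, 8839.9, 5889 and 7788 and was 3.69-fold higher. Mgst3 and Txnrd1 were 2.30-fold and 2.03-fold higher, and Mgst2 was seen on the metformin array but not on the control, at least 47.3-fold higher. Drug-metabolising P450 genes had a median of -0.32 (-0.51 to 0.17), with 4 of 19 2-fold or more above the control and 1 below it. Cyp1b1 gave 190.3, 191, 929.8 and 591 and was 4.89-fold higher, Cyp2g1 and Cyp2c55 were 3.55-fold and 2.73-fold higher, and Cyp2j5 was 2.10-fold lower.

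Clock genes had a median of -0.64 over 15 (-0.84 to -0.16). Clock gave 3921, 7668, 7422 and 4900.5, Per3 gave 1684, 2687, 765 and 1506 and Nfil3, a repressor of clock output, gave 13302, 4519, 5357 and 2179. Their folds were 1.89 higher, 2.20 lower and 2.48 lower. The clock output gene Dbp was 1.71-fold lower with 25641, 24121, 14978 and 21504. The hour at which livers were taken is not stated in the labels. Immediate early genes, which respond within minutes to handling of tissue, had a median of 0.05 (-0.14 to 0.54). Of 18 measured, 2 were 2-fold higher, near the 10.8% of all genes. These were Klf6 at 2.32-fold and Nr4a1 at 2.05-fold.

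Markers of other tissues and cells stood apart most for the exocrine pancreas, the gland next to the liver. Of 31 pancreas genes, 26 were measured, 25 below 0 and 24 at least 2-fold below, with a median of -2.12 (-2.31 to -1.64). The median was -3.93 on the diabetic array over 23 members and -5.14 on the combination array over 13. Members not well above background there, such as Rnase1, were left out, so these medians cover fewer genes. The summed scaled signal of the measured pancreas genes was 473521, 66901, 145894 and 33205. Cpa1, carboxypeptidase A1, gave 21895, 701, 2805 and 84.1 (the combination value not well above background), a 7.80-fold difference. Amy2a5, on 2 probes, was 2.70-fold lower with 32083, 14177, 11893 and 14688. The exception was Spink1, a trypsin inhibitor gene, at 1629, 3350.1, 17003 and 1466, 10.4-fold higher. The pancreas and unfolded protein response medians were -2.12 and -0.76 on the metformin array. They were -3.93 and 0.00 on the diabetic array and -5.14 and -0.86 on the combination array. The part of pancreatic RNA in any lower gene was not tested.

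Erythroid genes had a median of -0.70 over 9 (-0.89 to -0.22), all below 0, with summed signals of 167948, 116389, 122578 and 127149. Slc4a1, the anion exchanger of red cells, gave 4344, 214, 735 and 622 and was 5.91-fold lower, and Tfrc, the transferrin receptor, was 2.37-fold lower. Stellate cell and matrix genes had a median of 0.41 (0.22 to 0.90), with 4 of 19 at least 2-fold higher and summed signals of 155592, 95594, 167499.6 and 109286. Col1a1, the main fibrillar collagen, was 3.01-fold higher on 3 probes with 1178, 599, 3548 and 416 (the diabetic value above background on only some probes). Mmp2 and Timp1, a matrix protease and its inhibitor, were 4.27-fold and 2.43-fold higher, but Col1a2 and Col3a1 only 1.32-fold and 1.33-fold.

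Endothelial and bile duct markers had medians of -0.01 (-0.20 to 0.47) and 0.06 (-0.13 to 0.55), no member measured on both arrays at 2-fold, and summed signals of 156634, 120734, 157285 and 132715 for the former and 37374, 32452, 37903 and 28343 for the latter. A further 3 bile duct markers were above background on the metformin array alone, among them Ggt1 at least 3.03-fold and Sctr, the secretin receptor gene, at least 2.61-fold higher. The bound of Cftr, 0.915-fold, does not show it to be higher. Adipose and muscle genes were few, 7 of 16 measured, with a median of 0.43 (0.22 to 0.91) and summed signals of 8860.3, 8937, 11337 and 8759.6. Cfd, the adipose protease adipsin, gave 380.5, 526, 2575 and 159 and was 6.77-fold higher, while Adipoq, adiponectin, gave 5956, 4816, 5471 and 5786, a difference of -0.12 (-0.31 to 0.36). A further 4 members, all of muscle, were above background on the metformin array alone. Tnni2, a troponin of fast muscle, was at least 2.94-fold and Actn3 at least 1.89-fold higher. The bounds of Myh1 and Myh4, 0.995-fold and 0.937-fold, do not show them to be higher. The part of these tissues in other values was not tested. Of 19 hepatocyte genes, 17 were well above background on both arrays. Alb, albumin, gave 70589.8, no value, 50679 and no value, and Ttr, transthyretin, gave 48826, 36364, 31059.6 and 29468. The list had a median of -0.48 (-0.67 to 0.01), near the -0.35 of equally abundant genes, with summed signals of 956902, 799213, 654481 and 653552. Apoa1, at 84656 on the control array, had no value on the combination array and is missing from that sum.

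Other lists of abundant liver genes lay at a like distance. The medians were -0.38 (-0.57 to 0.11) for subunits of oxidative phosphorylation, those of complex I among them, with all 24 measured below 0 and none past 2-fold. They were -0.35 (-0.54 to 0.14) for the urea cycle and amino acid breakdown, -0.41 (-0.60 to 0.07) for periportal genes and -0.52 (-0.71 to -0.03) for acute phase proteins. Fga, a fibrinogen chain gene, was 2.69-fold lower with 61129, 38814, 22692 and 22690.3. Pericentral genes had a median of -0.33 (-0.52 to 0.16), but Rnf43 and Axin2, feedback genes of Wnt signalling, were higher, Rnf43 by 7.59-fold with 612, 3063, 4649 and 3779.7 and Axin2 by at least 4.16-fold. Rhbg, an ammonium transporter gene of the same zone, was 3.28-fold higher with 5713, 7134, 18726 and 11701, and Etnppl, a periportal gene, was 2.72-fold higher with 2857, 13932, 7772 and 21384.

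Outlier spots left 88 of the 846 listed genes without a value. With those spots kept, 85 had one, with a median of -0.32, 17 of them at least 2-fold higher and 9 lower. Among these, named after their values were seen, were Cyp4a10 at 3.69, Cyp1a1 at 2.59, Cxcl10 at 2.05 and the fatty acid transporter gene Cd36 at 1.46. The lipogenic genes Fasn and Scd1 lay at -0.92 and -1.02. Such values are less certain than the others.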

How the data were processed

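Total RNA of whole liver was labelled with Cy5 and read in 1 channel, per the labels' protocols, and all 4 arrays share a slide and a scan. The deposited scanner files hold spot intensity values that Feature Extraction 11.5.1.1 had corrected for background on a grid built for mm9, per the file headers, while the submitters' processing notes name version 10.7. The authors' value table holds log2 values made with GeneSpring, per the labels' protocols. Its columns correlated at 0.999 with the log2 intensities and share a median of 7.84, and how it was normalized is not stated in the labels.

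Here, log2 processed signals had the array's 75th percentile of non-control probes taken off, after outlier spots were dropped and the spots of a probe averaged. That percentile was 1560 on the control and 1961 on the metformin array, and 29398 and 31867 probes were above background, which required at least 50% of a probe's spots to be marked so. No spot was saturated. Probes were named through the RefSeq table of GRCm38.p6, which matched 33767 of 56605 (59.7%). A gene is the mean of its probes above background on both arrays. The level of an array with no measured value for a gene was bounded by the lowest signal above background there, or by the dim probe's own signal where higher. Promoters came from RefSeq, GRCm38.p6. The number of arrays limits the precision, and the steps were tested on simulated data.

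The members and the gene lists were chosen with earlier results of these data known. Named genes are the 12 furthest each way in the brighter part of the genes, with probes of 1 sign and a plain symbol, the 4 largest bounds each way, and in each list the 5 measured members furthest from 0 and those among its first 3 entries. Some genes that this rule names are not reported here. Other names, mostly members seen on 1 array, were chosen after their values were seen. Normexp used spot medians in place of the means first planned, because the files hold medians. Python 3.11.15, pandas 2.3.3 and limma 3.58.1 in R 4.3.3 were used.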

Additional observations from a re-analysis of the deposited data

How the results depend on the processing

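The 10 alternatives were the authors' value table, median centring, a percentile over probes above background on both arrays, quantile normalization, spike-in scaling, outlier spots kept, normexp background correction, no background filter, only genes above background on all 4 arrays, and the brightest probe of a gene. Counts of genes at least 2-fold higher, 1458 here, went to 3116 with spike-in scaling and 3602 without the background filter. Counts of genes at least 2-fold lower, 496 here, went to 784 with median centring, 197 with spike-in scaling and 910 without the filter. The others stayed within 1067 to 1517 higher and 385 to 734 lower. Of the 1954 genes 2-fold apart, 3 changed sign with outlier spots kept, 3 with the brightest probe and 15 without the background filter, 1 of 1797 did among genes above background on all 4 arrays, and none did under the other alternatives. Of these genes, 72.2% (normexp) to 99.3% (above background on all 4) were still 2-fold apart. Of the 42 list medians, 23 kept their sign under every alternative and 19 did not, 5 of them with spike-in scaling alone. The cause was not tested. Leaving out an array was not possible with 1 per group. No paired analysis was possible because each group has 1 array. Signal over background limits genes close to background on the control array, such as Prc1 at 151.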
